A study of Mus musculus with 46 samples.

Results

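The genes described are the chemokines and the chemokine receptors of mouse liver. They are the gene symbols of the RNA-seq count table that begin with Ccl, Cxcl, Ccr, Cxcr, Cx3cl or Cx3cr and a digit, together with Xcl1 and Xcr1, and they number 58 of the 24468 symbols in the table. Of these 58, 33 passed the filter on low counts and were tested between diets, 15 had counts that were too few, and 10 had no count in any mouse. Male C57BL/6 mice, bought at 5 weeks of age and acclimated for 1 week on chow, were then fed 1 of a pair of diets for 20 weeks. The lipid-rich diet (LD, named a high fat diet in the sample labels) drew 60% of energy from lipid and 20% from carbohydrate, and the carbohydrate-rich diet (CD, named a low fat diet) 10% and 70%. Liver RNA was sequenced from 5 mice per diet, H3K27ac ChIP-seq was made in 3 samples per diet, Hnf4a and C/EBPa ChIP-seq in 2 samples per diet each, and promoter capture Hi-C (PCHi-C) in 2 libraries per diet that were pooled. All groups were whole livers of this strain, for which the labels name no allele, transgene or agent other than diet, and no chow-fed group entered a comparison.

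Chemokines are small secreted proteins that draw leukocytes along a gradient by binding receptors that couple to G proteins, and their names follow the spacing of the first cysteines (CC, CXC, CX3C and XC). A receptor often binds several ligands and a ligand several receptors. In liver, CCL2 and its receptor CCR2 are known for the recruitment of blood monocytes, CXCL1 and CXCL2 for that of neutrophils, CXCL9 and CXCL10 for that of T cells, and CXCL12 is made by stromal and endothelial cells. H3K27ac marks active promoters and enhancers, and Hnf4a and C/EBPa are transcription factors of hepatocytes.

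RNA libraries held between 31707963 and 39012699 counted read pairs, and depths of the diets overlapped. Markers of hepatocytes were abundant in every mouse, with a sum over 8 genes of 79110 to 96220 CPM (read pairs scaled to a common library size) on LD and 85020 to 100900 CPM on CD. LD mouse 2 stood apart in the sum of 9 neutrophil markers, which was 93.3 CPM in that mouse. The sum was 7.51 to 8.52 CPM in the other 4 LD mice and 4.46 to 5.47 CPM in the CD mice. Without this mouse the log2 fold change (LD over CD) went from 3.67 to 1.65 for S100a8 and from 3.30 to 1.085 for S100a9. Those of Ly6g (0.04 to -0.12) and Csf3r (0.44 to 0.26), the other markers tested, moved less. Calls that were lost or gained without this mouse are given beside the results. In bulk RNA, more cells of a type and more RNA per cell cannot be told apart, and this holds for every gene below. Nothing in the labels ties a replicate number to a litter or day, and the p-values measure the spread between these mice.

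The sequence before the start sites of Cxcl1, Cxcl2, Cxcl3, Cxcl5, Cxcl10 and Cxcl11, 6 of the 9 CXC ligand genes on chromosome 5, held a motif that they share, and 7 promoters are printed here to show it beside genes that lacked it. In the 250 bases before the start site on the mm9 genome, both strands were searched for 4 motifs. These were the NF-kB consensus, the AP-1 motif TGANTCA, the interferon-stimulated response element and the C/EBP motif TTGCNNAA. The NF-kB consensus was in 11 of the 57 symbols with a sequence (19.3%) and in 3.98% of 24652 start sites of the count table. AP-1 was in 7 of them (12.3%, against 6.2%), the interferon motif in 3 (5.26%, against 3.14%) and the C/EBP motif in 7 (12.3%, against 8.91%). Cxcl1, Cxcl2 and Cxcl3 each had a pair of NF-kB matches shifted by a base, and Ccl5 and Cxcl10 had 1 and 2 matches. The NF-kB consensus was in 4 of the 20 genes that rose, in 3 of the other 13 tested genes and in 4 members that were not tested. Ccl2 had none of the 4 motifs in this window and Ccl7 had the AP-1 motif only. Capitals mark every match to any of the 4 motifs, each sequence runs 5′ to 3′ on the strand of its gene, and the last base lies next to the start site.
Cxcl1 (chr5:91320021-91320270, plus strand): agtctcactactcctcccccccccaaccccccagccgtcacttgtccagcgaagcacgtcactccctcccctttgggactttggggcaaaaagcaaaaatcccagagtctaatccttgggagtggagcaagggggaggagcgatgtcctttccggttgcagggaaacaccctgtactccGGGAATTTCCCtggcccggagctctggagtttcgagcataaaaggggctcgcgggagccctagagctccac
Cxcl2 (chr5:91332675-91332924, plus strand): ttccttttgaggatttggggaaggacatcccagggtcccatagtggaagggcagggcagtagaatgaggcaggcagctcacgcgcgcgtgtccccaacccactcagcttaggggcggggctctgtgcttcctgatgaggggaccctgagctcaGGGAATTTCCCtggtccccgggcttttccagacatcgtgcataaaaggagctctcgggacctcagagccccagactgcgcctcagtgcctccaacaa
Cxcl3 (chr5:91214877-91215126, plus strand): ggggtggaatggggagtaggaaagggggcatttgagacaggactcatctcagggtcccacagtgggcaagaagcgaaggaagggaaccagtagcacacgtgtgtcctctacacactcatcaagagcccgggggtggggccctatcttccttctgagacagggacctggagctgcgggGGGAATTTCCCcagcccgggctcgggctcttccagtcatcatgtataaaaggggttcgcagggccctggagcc
Cxcl10 (chr5:92777916-92778165, minus strand): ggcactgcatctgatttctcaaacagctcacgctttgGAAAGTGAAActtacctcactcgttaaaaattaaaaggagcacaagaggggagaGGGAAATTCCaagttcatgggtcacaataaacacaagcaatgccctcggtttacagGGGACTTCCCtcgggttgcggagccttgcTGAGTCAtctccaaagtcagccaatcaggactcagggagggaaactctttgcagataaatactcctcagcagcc
Ccl5 (chr11:83344021-83344270, minus strand): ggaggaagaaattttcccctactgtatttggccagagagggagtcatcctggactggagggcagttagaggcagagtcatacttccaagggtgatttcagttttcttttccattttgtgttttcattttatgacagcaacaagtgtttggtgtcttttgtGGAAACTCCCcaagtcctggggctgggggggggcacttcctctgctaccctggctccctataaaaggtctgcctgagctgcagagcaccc
Ccl2 (chr11:81848829-81849078, plus strand): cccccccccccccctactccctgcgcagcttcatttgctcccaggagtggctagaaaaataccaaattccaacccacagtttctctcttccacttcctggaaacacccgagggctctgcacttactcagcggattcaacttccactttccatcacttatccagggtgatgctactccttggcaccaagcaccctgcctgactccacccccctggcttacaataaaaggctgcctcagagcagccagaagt
Ccl7 (chr11:81858964-81859213, plus strand): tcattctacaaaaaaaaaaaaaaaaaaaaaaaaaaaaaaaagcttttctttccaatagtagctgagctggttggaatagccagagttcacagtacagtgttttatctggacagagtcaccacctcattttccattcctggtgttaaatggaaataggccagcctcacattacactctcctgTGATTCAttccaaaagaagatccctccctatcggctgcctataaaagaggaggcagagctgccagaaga

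Chemokine and receptor RNA was mostly higher on LD. Genes were called at an adjusted p-value (Benjamini-Hochberg over all rows tested, edgeR's quasi-likelihood test) under 0.05 and a fold change above 1.2. Of the 33 tested genes 20 rose on LD, 1 fell (Ccl25) and 12 were not called, where 13.8% of all 13494 rows tested rose, 11.1% fell and 24.9% were called in either direction. The median log2 fold change of the 33 was 0.98, beside -0.00187 for all rows. In 16 of the 33 every LD mouse lay above every CD mouse (10.2% of all rows), and in 1 every LD mouse lay below (8.35% of all rows). A gene that is low on CD passes the filter on low counts only if it is high on LD, and 13 of the 33 did not reach the filter's minimum in every CD library. Among the 21 genes with at least 10 counts in each of the 10 libraries, 12 rose, where 13.4% of all rows under that filter did. Without LD mouse 2, 17 rose, and Ccr7, Ccr9, Cxcl16 and Ccl25 were no longer called.

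**Figure D1:**
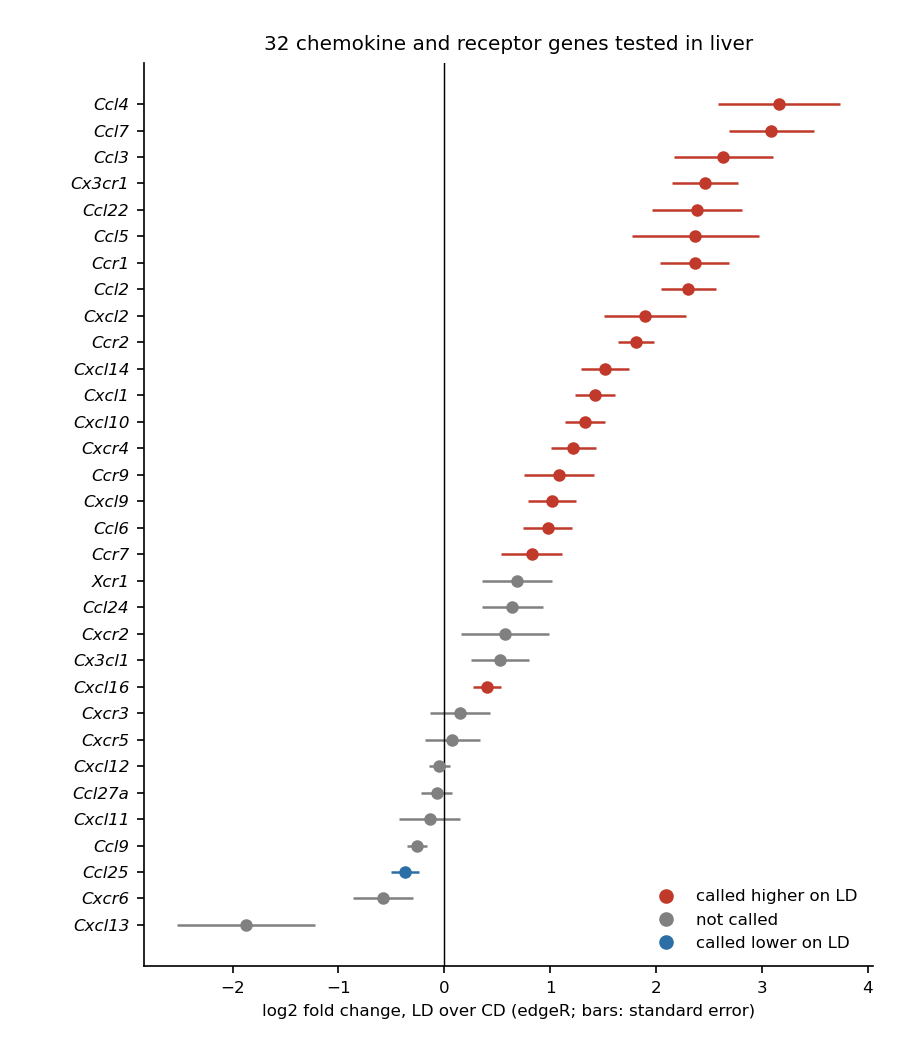
Log2 fold change of LD over CD (x axis) for 32 tested genes (y axis), with the standard error from edgeR as bars and the call as colour. The 19 genes in red rose on LD, from 0.40 for Cxcl16 to 3.16 for Ccl4, and Ccl25 in blue fell by 0.37 on the log2 scale.

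The monocyte attractants Ccl2 and Ccl7 and their receptor Ccr2 rose. Ccl2, the main monocyte attractant, was at 1.92, 2.34, 2.08, 2.18 and 2.52 CPM in the 5 LD mice and 0.478, 0.392, 0.279, 0.286 and 0.786 CPM in the 5 CD mice. The diets did not overlap, and the lowest LD mouse was above the highest CD mouse (log2 fold change 2.31 ± 0.26 (SE), adjusted p = 5.66e-05). Its neighbour Ccl7, which binds the same receptor, was at 0.460, 0.503, 0.714, 0.879 and 0.587 CPM in the 5 LD mice and 0.0319, 0.0261, 0.0838, 0.127 and 0.0873 CPM in the 5 CD mice. Here too every LD mouse was above every CD mouse, at levels on CD that were below the filter minimum of 0.292 CPM in each mouse (log2 fold change 3.09 ± 0.40 (SE), adjusted p = 0.000143). Ccr2, the receptor that takes inflammatory monocytes out of marrow and blood into tissue, was at 8.58, 13.1, 9.74, 9.04 and 16.0 CPM in the 5 LD mice and 3.15, 3.0, 3.66, 2.86 and 3.43 CPM in the 5 CD mice. LD mice 2 and 5 were the highest, and the CD mice differed little among themselves (log2 fold change 1.81 ± 0.17 (SE), adjusted p = 2.01e-05). Ccl8 and Ccl12, in the same gene cluster as Ccl2 and Ccl7, had too few counts to test. Ccl8 had 33 counts over the LD mice and 23 over the CD mice, and Ccl12 had 4 and 5. Of the LD counts of Ccl8, 22 were in LD mouse 2, and without that mouse there were 11 on LD and 23 on CD, a ratio per counted read of 0.594 (95% counting interval 0.262 to 1.27) in place of 1.38.

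The inflammatory CC ligands Ccl3, Ccl4 and Ccl5 also rose, as did the receptor Ccr1. Ccl3 was at 0.839, 0.805, 0.434, 0.637 and 0.587 CPM in the 5 LD mice and 0.0319, 0.261, 0.140, 0.0318 and 0.0291 CPM in the 5 CD mice. The groups were apart, and CD mice 2 and 3 were above the other 3 (log2 fold change 2.64 ± 0.47 (SE), adjusted p = 0.00125). Ccl4, which shares a locus with Ccl3, was at 1.03, 1.36, 0.683, 0.455 and 0.531 CPM in the 5 LD mice and 0.287, 0.0522, 0, 0.0318 and 0.0873 CPM in the 5 CD mice. It had the largest fold change of the tested members, and the value on CD rested on few counts, since CD mouse 1 held more than the other CD mice together (log2 fold change 3.16 ± 0.58 (SE), adjusted p = 0.00154). Leaving out CD mouse 1 gave 4.14 for Ccl4, and leaving out CD mouse 2 gave 3.39 for Ccl3. Ccl5, known from T and natural killer cells and macrophages, was at 5.98, 2.29, 0.993, 0.97 and 0.755 CPM in the 5 LD mice and 0.319, 0.574, 0.447, 0.476 and 0.291 CPM in the 5 CD mice. LD mouse 1 was far the highest, and the groups did not overlap (log2 fold change 2.37 ± 0.60 (SE), adjusted p = 0.0129). Leaving out LD mouse 1 gave 1.57 (adjusted p = 0.00588, edgeR). That mouse also had the highest sum of T cell markers (9.42 CPM, other mice 2.18 to 6.77) and of natural killer cell markers (6.66 CPM, other mice 2.23 to 5.36), and their part in the result was not tested.

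Ccr1, a receptor of monocytes and neutrophils, was at 0.758, 1.06, 1.30, 1.03 and 1.96 CPM in the 5 LD mice and 0.159, 0.157, 0.279, 0.222 and 0.349 CPM in the 5 CD mice. Every LD mouse was above every CD mouse (log2 fold change 2.37 ± 0.33 (SE), adjusted p = 0.000234). Ccl6, a ligand made by macrophages that is attributed to Ccr1, was at 12.5, 28.5, 14.0, 13.5 and 13.4 CPM in the 5 LD mice and 10.9, 8.90, 7.07, 6.89 and 7.98 CPM in the 5 CD mice. LD mouse 2 had a level well above the other LD mice, whose lowest was still above every CD mouse (log2 fold change 0.98 ± 0.24 (SE), adjusted p = 0.0104), and leaving it out gave 0.68 (adjusted p = 0.0016, edgeR). Ccl9, its close relative, was at 40.4, 52.8, 49.99, 47.8 and 61.0 CPM in the 5 LD mice and 67.8, 59.9, 56.6, 58.5 and 58.4 CPM in the 5 CD mice. Only LD mouse 5 lay among the CD mice, the other LD mice were below them, and it did not pass (log2 fold change -0.26 ± 0.09 (SE), adjusted p = 0.0566), except without LD mouse 5 (adjusted p = 0.0134, edgeR).

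In the CX3C pair the receptor rose and the ligand did not pass. Cx3cr1, the fractalkine receptor of monocytes and macrophages, was at 3.60, 10.6, 4.72, 7.19 and 11.4 CPM in the 5 LD mice and 1.34, 1.36, 1.65, 1.33 and 1.11 CPM in the 5 CD mice. The CD mice lay close together and the LD mice spread widely, with no overlap (log2 fold change 2.46 ± 0.31 (SE), adjusted p = 0.000227). Cx3cl1, the membrane-bound fractalkine, was at 0.785, 1.56, 1.58, 0.819 and 1.71 CPM in the 5 LD mice and 0.637, 1.2, 0.754, 1.02 and 0.844 CPM in the 5 CD mice. The groups overlapped (log2 fold change 0.53 ± 0.27 (SE), adjusted p = 0.169).

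**Figure D2:**
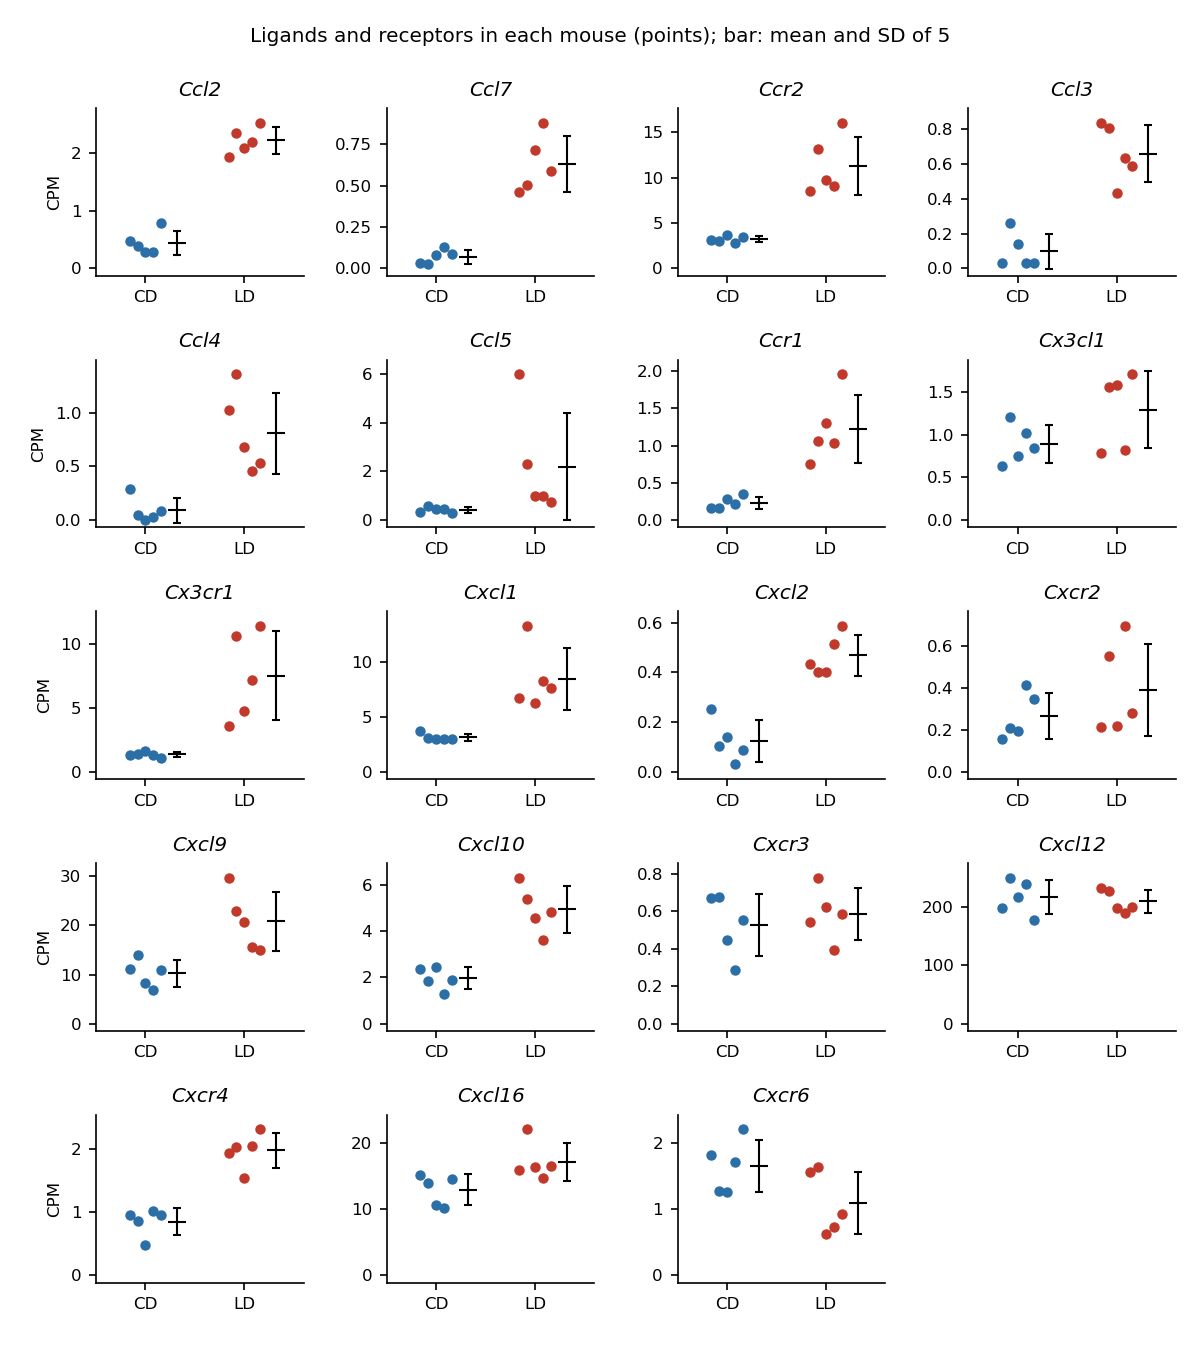
CPM (y axis, linear from 0) of 19 ligands and receptors in each of the 5 CD and 5 LD mice (points), with the mean and SD as a bar. Ccl2, Ccl7, Ccr2, Ccl3, Ccl4, Ccl5, Ccr1, Cx3cr1, Cxcl1, Cxcl2, Cxcl9, Cxcl10 and Cxcr4 had no overlap between diets, and Cx3cl1, Cxcr2, Cxcr3, Cxcl12, Cxcl16 and Cxcr6 did.

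Cxcl1 and Cxcl2, ligands that draw neutrophils, rose, and their receptor Cxcr2 was not called. Cxcl1 was at 6.74, 13.3, 6.24, 8.22 and 7.66 CPM in the 5 LD mice and 3.70, 3.08, 2.96, 2.95 and 3.0 CPM in the 5 CD mice. It was the most abundant of them, LD mouse 2 was the highest, and the groups were apart (log2 fold change 1.43 ± 0.19 (SE), adjusted p = 0.000186). Without that mouse Cxcl1 still rose (log2 fold change 1.2, adjusted p = 3.96e-05, edgeR). Cxcl2, whose promoter holds the same NF-kB match, was at 0.433, 0.403, 0.403, 0.516 and 0.587 CPM in the 5 LD mice and 0.255, 0.104, 0.140, 0.0318 and 0.0873 CPM in the 5 CD mice. Its levels were far lower, and the groups were apart (log2 fold change 1.90 ± 0.39 (SE), adjusted p = 0.00296). Cxcr2, the receptor of both on neutrophils, was at 0.216, 0.554, 0.217, 0.697 and 0.280 CPM in the 5 LD mice and 0.159, 0.209, 0.196, 0.413 and 0.349 CPM in the 5 CD mice. LD mice 2 and 4 were high, the others lay among the CD mice, and it was not called (log2 fold change 0.57 ± 0.42 (SE), adjusted p = 0.334). Cxcl3, which also holds the NF-kB match, had no count in any mouse. Cxcl5 had 39 counts on LD and 7 on CD, a ratio per counted read of 5.37 with a 95% counting interval of 2.38 to 14.2. CD mouse 1 held 5 of those 7, and without it the ratio was 15.4 (interval 3.98 to 131), from 39 counts and 2. Without LD mouse 2 the ratio was 4.26 (interval 1.78 to 11.7), from 24 counts and 7. Cxcr1 had 17 counts on LD and 0 on CD, which was 5.77 times a floor of 3 counts over the CD libraries on unscaled totals. The exact 95% counting interval of the ratio had a lower end of 3.98, and of 2.33 without LD mouse 3. Of the 17 counts of Cxcr1, 8 were in LD mouse 3 and 0 in LD mouse 1. Both Cxcl5 and Cxcr1 fell below the filter, and a fit with no filter called them (adjusted p = 0.0451 and 0.0213, edgeR).

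Of the interferon-inducible ligands of Cxcr3, a pair rose and the third did not. Cxcl9 was at 29.8, 23.1, 20.7, 15.6 and 15.0 CPM in the 5 LD mice and 11.1, 14.1, 8.35, 6.80 and 11.0 CPM in the 5 CD mice. The lowest LD mouse was just above the highest CD mouse (log2 fold change 1.02 ± 0.23 (SE), adjusted p = 0.00699). Cxcl10, the promoter of which holds NF-kB, AP-1 and interferon motifs, was at 6.33, 5.39, 4.59, 3.61 and 4.84 CPM in the 5 LD mice and 2.36, 1.85, 2.46, 1.27 and 1.89 CPM in the 5 CD mice. The groups were further apart than for Cxcl9 (log2 fold change 1.33 ± 0.19 (SE), adjusted p = 0.000298). Cxcl11, which lies next to them on chromosome 5 and also has NF-kB and AP-1 matches before its start site, was at 0.890 ± 0.314 CPM on LD and 0.976 ± 0.260 CPM on CD (mean ± SD, n = 5 each) and was not called (log2 fold change -0.14 ± 0.29 (SE), adjusted p = 0.757). Cxcr3, their receptor on activated T cells, was at 0.541, 0.780, 0.621, 0.394 and 0.587 CPM in the 5 LD mice and 0.669, 0.679, 0.447, 0.286 and 0.553 CPM in the 5 CD mice. The diets overlapped almost fully (log2 fold change 0.15 ± 0.28 (SE), adjusted p = 0.731).

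Cxcl12 was the most abundant member and did not differ by the test, while its receptor rose. Cxcl12, which holds stem cells and lymphocytes near stroma, was at 233, 227, 199, 189 and 199 CPM in the 5 LD mice and 198, 250, 218, 239 and 178 CPM in the 5 CD mice. The groups covered the same range (log2 fold change -0.05 ± 0.10 (SE), adjusted p = 0.755), with a 0.04 change in the other direction when TPM values were used. Cxcr4, its receptor on leukocytes, was at 1.95, 2.04, 1.55, 2.06 and 2.32 CPM in the 5 LD mice and 0.956, 0.861, 0.475, 1.02 and 0.961 CPM in the 5 CD mice. The groups were apart, and CD mouse 3 was the lowest (log2 fold change 1.22 ± 0.22 (SE), adjusted p = 0.00118). Cxcl14, a ligand of epithelium and fibroblasts, was at 2.14, 3.60, 2.79, 2.67 and 4.28 CPM in the 5 LD mice and 0.797, 1.28, 0.838, 1.02 and 1.46 CPM in the 5 CD mice. It rose with no overlap (log2 fold change 1.52 ± 0.23 (SE), adjusted p = 0.000414). Cxcl16, a membrane-bound ligand, was at 15.8, 22.0, 16.4, 14.7 and 16.4 CPM in the 5 LD mice and 15.2, 13.9, 10.6, 10.2 and 14.5 CPM in the 5 CD mice. LD mouse 2 was far above the others and LD mouse 4 lay below CD mouse 1, and the call (log2 fold change 0.40 ± 0.13 (SE), adjusted p = 0.0384) failed in 6 of 10 fits with a mouse omitted, with adjusted p = 0.0865 (edgeR) without LD mouse 2. Cxcr6, the receptor of Cxcl16 on T and natural killer T cells, was at 1.57, 1.64, 0.621, 0.728 and 0.923 CPM in the 5 LD mice and 1.82, 1.28, 1.26, 1.71 and 2.21 CPM in the 5 CD mice. It was lower in LD mice 3, 4 and 5 but not called (log2 fold change -0.58 ± 0.28 (SE), adjusted p = 0.147).

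Genes of lymphoid and gut homing were low in liver, and the calls of Ccr7 and Ccr9 were lost in some fits. Ccl22, a dendritic cell and macrophage ligand of Ccr4, was at 0.460, 0.529, 0.372, 0.788 and 0.699 CPM in the 5 LD mice and 0.191, 0.0522, 0.0279, 0.0953 and 0.175 CPM in the 5 CD mice. It rose with no overlap (log2 fold change 2.39 ± 0.42 (SE), adjusted p = 0.00122), while Ccr4 itself had 5 counts on LD and 1 on CD and the other ligand Ccl17 had 9 and 9. Ccr7, which guides dendritic cells and naive T cells to lymph nodes, was at 0.622, 0.931, 1.15, 1.18 and 0.755 CPM in the 5 LD mice and 0.637, 0.287, 0.391, 0.730 and 0.582 CPM in the 5 CD mice. The groups overlapped, and the call (log2 fold change 0.83 ± 0.29 (SE), adjusted p = 0.0473) failed in 8 of 10 fits with a mouse omitted. Ccr9, a gut-homing receptor, was at 0.704, 0.780, 0.714, 0.273 and 0.643 CPM in the 5 LD mice and 0.287, 0.261, 0.307, 0.445 and 0.175 CPM in the 5 CD mice. LD mouse 4 lay among the CD mice, and the call (log2 fold change 1.08 ± 0.33 (SE), adjusted p = 0.0257) failed in 4 of those fits.

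Ccl25, the ligand of Ccr9, was at 2.16, 2.29, 2.48, 2.21 and 2.29 CPM in the 5 LD mice and 3.19, 3.08, 2.71, 3.27 and 2.56 CPM in the 5 CD mice. It was the only member that fell, the LD mice lay wholly below the CD mice, and the change was small (log2 fold change -0.37 ± 0.13 (SE), adjusted p = 0.0471), with the call absent from 9 of 10 fits with a mouse omitted. Cxcl13, the B cell attractant, had the most negative log2 fold change, at 0.759 ± 0.652 CPM on LD and 2.82 ± 1.51 CPM on CD (mean ± SD, n = 5), and was not called (log2 fold change -1.87 ± 0.65 (SE), adjusted p = 0.0562). It passed with DESeq2 (adjusted p = 0.0449), with limma on log2(TPM + 1) (adjusted p = 0.0437) and with edgeR without LD mouse 1 or without CD mouse 3. Cxcr5, its receptor on B cells, was at 0.584 ± 0.103 CPM on LD and 0.560 ± 0.161 CPM on CD (log2 fold change 0.07 ± 0.26 (SE), adjusted p = 0.86). The remaining tested genes were not called. Ccl24, an eosinophil attractant, was at 2.06 ± 0.792 CPM on LD and 1.31 ± 0.352 CPM on CD (log2 fold change 0.64 ± 0.29 (SE), adjusted p = 0.117, and 0.0239 without LD mouse 5, edgeR). Ccl27a, a skin chemokine, was at 5.03 ± 0.864 CPM on LD and 5.30 ± 0.713 CPM on CD (log2 fold change -0.07 ± 0.14 (SE), adjusted p = 0.741). Xcr1, the receptor of cross-presenting dendritic cells, was at 0.625 ± 0.183 CPM on LD and 0.386 ± 0.162 CPM on CD (log2 fold change 0.69 ± 0.33 (SE), adjusted p = 0.141).

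The 25 members that were not tested had 82 counts or fewer over the 10 mice, and 10 had none. Ccl1, Ccl21a, Ccl21b, Ccl21c, Ccl26, Ccl27b, Ccr8, Cxcl3, Cxcl15 and Cxcl17 had no count in 10 mice, which over the 172880180 counted read pairs of LD and the 175971120 of CD allows a level of up to 0.0174 and 0.017 CPM (3 counts). Ccl19, Ccl21a, Ccl21b, Ccl21c and Ccl27b fill several rows of the table with near-identical copies, so that their counts are uncertain where reads fit several copies. Ccr3, the eosinophil receptor, had the most counts among the rest, with 63 on LD and 19 on CD, a ratio of 3.2 with a counting interval of 1.89 to 5.66. LD mouse 5 held 27 of the 63 counts, and without it the ratio was 2.29 (interval 1.28 to 4.22). CD mouse 1 held 9 of the 19, and without it the ratio was 4.96 (interval 2.53 to 10.9). The fit with no filter did not call Ccr3 (adjusted p = 0.0879, edgeR). Ccl28 had 46 and 28 counts (ratio 1.58, interval 0.97 to 2.63), Xcl1 had 36 and 35 (0.992, 0.605 to 1.63), and Ccr6 had 21 and 12 (1.69, 0.793 to 3.76). Ccl11 had 10 and 9, Ccr1l1 had 8 and 11, Ccl20 had 5 and 0, Ccr10 had 2 and 1, and Ccl19 had 1 and 0. The intervals are exact, at 95%, and cover counting error only, not the spread between mice.

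Ranked by TPM (a transcript level per length), Cxcl12 and Ccl9 were the highest on both diets. Cxcl12 was at 55.5 ± 5.57 TPM on LD and 54.4 ± 8.62 on CD, and Ccl9 was at 31.9 ± 6.11 and 35.9 ± 1.58 (mean ± SD, n = 5). Ccl6 followed at 21.5 ± 8.53 and 10.4 ± 1.72 TPM and Cxcl1 at 16.8 ± 5.36 and 5.92 ± 0.401 TPM. On LD, Cxcl9 and Cxcl16 were at 13.5 ± 3.84 and 13.2 ± 2.19 TPM, and from Ccl9 down the mean ± SD range of each gene in this order overlapped that of the next. On CD, Ccl6 and Cxcl16 (9.43 ± 1.52 TPM) lay within each other's spread, and Cxcl1 lay below Cxcl16 and did not differ beyond the spread from Ccl27a (6.47 ± 0.797 TPM) and Cxcl9 (6.33 ± 1.75 TPM). The receptor Ccr2 was at 6.02 ± 2.0 TPM on LD and 1.61 ± 0.168 on CD. Summed CPM of all receptors ran from 29.0 to 47.7 on LD and from 15.4 to 17.5 on CD, and that of all ligands without Cxcl12 and Ccl9 from 76.5 to 119.95 on LD and from 43.7 to 62.4 on CD, with no overlap in either sum. Over all members, with Cxcl12 and Ccl9 counted in, the diets overlapped, at 345 to 448 CPM on LD and 309 to 389 CPM on CD.

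Genes outside the members that act in the same system were read from lists, beside the 13.8% of all rows tested that rose and the 11.1% that fell. Of the 9 other chemokines and atypical receptors, Pf4, a platelet chemokine, rose (log2 fold change 1.19 ± 0.22 (SE), adjusted p = 0.00147) and the others were not called. Their log2 fold changes were -0.37 for Ppbp, 0.17 for Ccrl2, 0.62 for Ackr1, 0.42 for Ackr2, 0.41 for the Cxcl12 scavenger Ackr3, -0.38 for Ackr4, 0.17 for the chemerin receptor Cmklr1 and 0.20 for chemerin, Rarres2. Of 24 genes of receptor signalling 10 rose and 0 fell. Beside Cxcr4 itself they were led by Rgs2, a brake on G protein signalling (log2 fold change 0.79 ± 0.20 (SE), adjusted p = 0.0133), and Was, an actin regulator of leukocytes (log2 fold change 0.77 ± 0.19 (SE), adjusted p = 0.00964). Of 23 tested genes of NF-kB and its inducers 8 rose and 1 fell (Il1r1, -0.53), with Vcam1 (0.97), Relb (0.83) and Tlr2 (0.79) the largest. The cytokines Tnf (0.60, adjusted p = 0.247) and Il1b (-0.57, adjusted p = 0.449) were not called, and Il6 and Ifng had 12 and 16 counts on LD and 9 and 9 on CD. Of 15 tested genes of leukocyte adhesion 9 rose and 0 fell, with Selp, the P-selectin of platelets and endothelium (log2 fold change 1.12 ± 0.20 (SE), adjusted p = 0.00144), Vcam1 and the integrin Itgam (0.90) the largest at 1 CPM or more. The medians were 0.20, 0.37, 0.14 and 0.76 for the lists in this order, beside -0.00187 for all rows, and some genes stand in several of them. Without LD mouse 2, Plcb2, Pik3cg and Tlr4 were no longer called, Itgb2 rose and Ackr4 fell.

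Markers of the cells that carry these receptors were read from lists too, where 13.8% of all rows tested rose and 11.1% fell. Of 10 markers of monocytes and macrophages derived from them 8 rose, led by Gpnmb (4.53), Trem2 (2.55) and Itgax (2.48, log2 fold changes), and their summed CPM was 204 to 379 in the LD mice and 102 to 176 in the CD mice. Of 11 Kupffer cell markers only Cd68 rose (0.96), and the sums overlapped, at 509.9 to 1450 and 453 to 881 CPM, where LD mouse 2 was the highest and the other 4 LD mice reached 919 CPM at most. Among the others, 1 of 4 tested neutrophil markers rose (S100a8), 3 of 8 of dendritic cells (a list that holds the members Xcr1 and Ccr7, of which Ccr7 is 1 of the 3), 1 of 5 of natural killer cells, 1 of 5 of B cells, 4 of 9 of stellate cells and fibroblasts, 1 of 8 of liver endothelium and 1 of 6 of cholangiocytes (Spp1, which is also 1 of the 8 monocyte and macrophage markers that rose). Without LD mouse 2, S100a8 was still called (log2 fold change 1.65, against 3.67 with it) and S100a9 was called too (adjusted p = 0.00541, edgeR), while Gzmb, Cd79b, Flt3 and Ccr7 were not and the endothelial markers Kdr and Fcgr2b fell. Of 7 tested T cell markers Cd8a rose (2.04) and Cd4 fell by 1.26 on the log2 scale. Hepatocyte markers fell in 3 of 8 and rose in 0. Of the adipocyte markers tested, Cidec rose and Adrb3 fell, while Lep and Plin1 had no count. The monocyte list moved with the rise of Ccl2, Ccl7, Ccr2, Ccr1 and Cx3cr1, and its part in the result was not tested.

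H3K27ac was broader on LD around 17 of these genes, with the widest gaps at receptor genes of chromosome 9. For each gene the share of the gene and 20 kb on either side that lay inside a peak was computed in each sample. Of the 58 members 46 had a peak in this window in some sample and 12 had none. In 17 of the 46 every LD sample had more coverage than every CD sample, and in 1 (Ccl27a) less, where the shares over all rows with a peak were 20.9% and 5.3%. With 3 samples against 3, an exact permutation test cannot give a two-sided p below 0.1, and these genes had that value. Neighbouring genes share windows, as Ccl3 and Ccl4, Ccl2 and Ccl7 and Ccl6 and Ccl9 do, and are not independent. The LD samples also had more peaks in all, 53821 to 56987 against 48156 to 51608, and the part of this in the result was not tested.

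**Figure D3:**
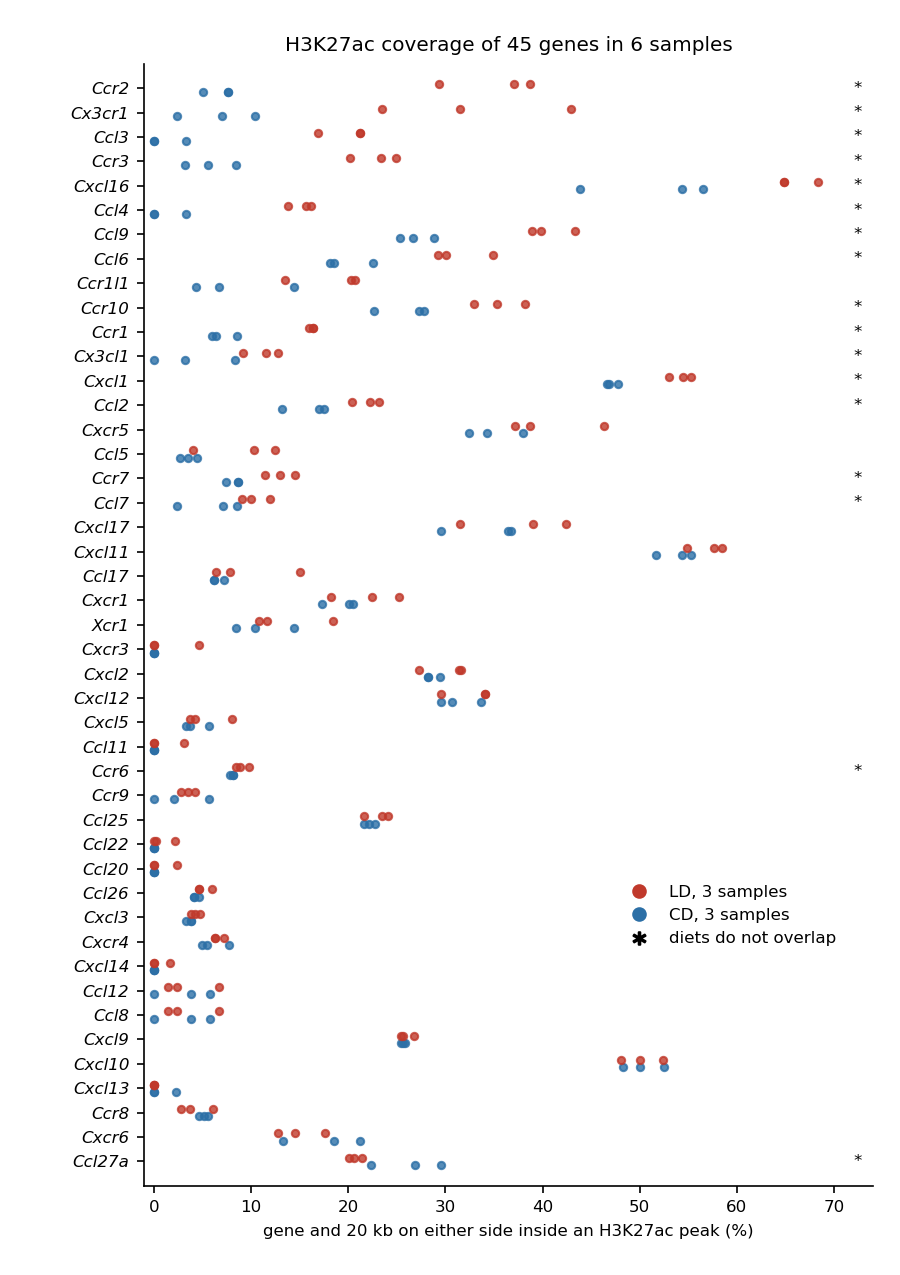
Share of each gene with 20 kb on either side that lay inside an H3K27ac peak (x axis, %) in 3 LD samples (red) and 3 CD samples (blue), for 45 genes with a peak, ordered by the difference of means. Asterisks mark genes without overlap between diets, of which Ccr2 and Cx3cr1 had the widest gap and Ccl27a alone had less coverage on LD.

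Coverage around Ccr2 was 29.4, 37.1 and 38.8% in LD samples 1 to 3 and 5.11, 7.67 and 7.67% in CD samples 1 to 3. The lowest LD sample was far above the highest CD sample. Around Ccr1 it was 16.0, 16.4 and 16.4% in LD samples 1 to 3 and 6.44, 6.01 and 8.59% in CD samples 1 to 3. Both sets were tight and apart. Around Cx3cr1 it was 23.5, 42.9 and 31.5% in LD samples 1 to 3 and 10.4, 7.05 and 2.35% in CD samples 1 to 3. Here LD sample 2 was the broadest and CD sample 3 the narrowest. The low eosinophil receptor gene Ccr3, which lies between Ccr1 and Ccr2, had 20.2, 24.9 and 23.4% in LD samples 1 to 3 and 5.63, 8.45 and 3.22% in CD samples 1 to 3, so that a gene with few reads showed the same pattern as Ccr1 and Ccr2. At Ccr1l1, which lies between Ccr1 and Ccr3, the diets overlapped. It had 13.5, 20.3 and 20.7% in LD samples 1 to 3 and 6.75, 4.34 and 14.5% in CD samples 1 to 3.

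Among the ligands, coverage around Ccl4 was 13.8, 16.2 and 15.7% in LD samples 1 to 3 and 0, 0 and 3.33% in CD samples 1 to 3. A pair of CD samples had no peak in the window at all. Around Ccl3 it was 16.9, 21.2 and 21.2% in LD samples 1 to 3 and 0, 0 and 3.37% in CD samples 1 to 3, a window largely shared with Ccl4. Around Ccl2 it was 20.3, 23.2 and 22.3% in LD samples 1 to 3 and 17.0, 17.5 and 13.2% in CD samples 1 to 3. The gap was smaller here and the CD samples had coverage of their own. Around Ccl9 it was 38.9, 43.3 and 39.8% in LD samples 1 to 3 and 28.9, 26.7 and 25.4% in CD samples 1 to 3, although Ccl9 RNA was not called and had a negative log2 fold change. Around Cxcl16 it was 64.8, 68.3 and 64.8% in LD samples 1 to 3 and 54.3, 56.5 and 43.9% in CD samples 1 to 3, and around Cxcl1 54.5, 55.2 and 53.0% in LD samples 1 to 3 and 46.6, 46.8 and 47.8% in CD samples 1 to 3. For the CXC ligands that rose otherwise, coverage did not separate the diets. Around Cxcl2 it was 31.4, 31.6 and 27.3% in LD samples 1 to 3 and 29.5, 28.2 and 28.2% in CD samples 1 to 3. Around Cxcl9 it was 25.7, 25.5 and 26.8% in LD samples 1 to 3 and 25.5, 25.9 and 25.7% in CD samples 1 to 3, and around Cxcl10 48.1, 52.3 and 49.98% in LD samples 1 to 3 and 49.98, 48.3 and 52.5% in CD samples 1 to 3. Of the 20 genes that rose in RNA, 12 had separated coverage, and Ccl5, Ccl22, Ccr9, Cxcl2, Cxcl9, Cxcl10, Cxcl14 and Cxcr4 did not. Coverage was separated with more on LD also at Ccl9 and Cx3cl1, which were not called, and at Ccr3, Ccr6 and Ccr10, which were not tested.

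At the start sites themselves, 10 of the 58 members lay inside a peak in all 6 samples (45.7% of all rows did) and 32 lay in no peak. The 10 were Ccl6, Ccl9, Ccl25, Cxcl1, Cxcl9, Cxcl10, Cxcl11, Cxcl12, Cxcl16 and Cxcr4. The start sites of Ccl2 and Ccl4 were in a peak in all 3 LD samples and in no CD sample (0.443% of all rows), and no member showed the reverse (0.0392% of all rows). In 14 members the start site was in a peak in more LD than CD samples (5.66% of all rows), and in 0 the other way (2.17% of all rows).

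Overlapping peaks were joined across samples into loci, and 97 loci seen in 2 samples or more lay within 20 kb of a member. Of these 59 were found in all 6 samples (59.5% of 50205 loci genome-wide were), 12 in the 3 LD samples only (3.13% genome-wide) and 0 in the 3 CD samples only (0.757% genome-wide). At Cx3cr1 there were 3, at chr9:119951200-119953599, chr9:119966200-119969399 and chr9:119972800-119979799, the last of which covers the start site. In the receptor cluster 5 lay at chr9:123882000-123883999 over the 5′ end of Ccr1, chr9:123927400-123930399 and chr9:123947800-123949999 on either side of Ccr3, chr9:124003400-124006199 before Ccr2 and chr9:124016800-124023399 over Ccr2. On chromosome 11 there were 2 at Ccl4, chr11:83470600-83473399 and chr11:83475200-83478399, and 1 at chr11:101042400-101043599 near Ccr10. Coordinates are those of mm9 as the peak lists give them. The count was 19 without LD sample 1 and 21 when 2 samples of LD and none of CD were enough.

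**Figure D4:**
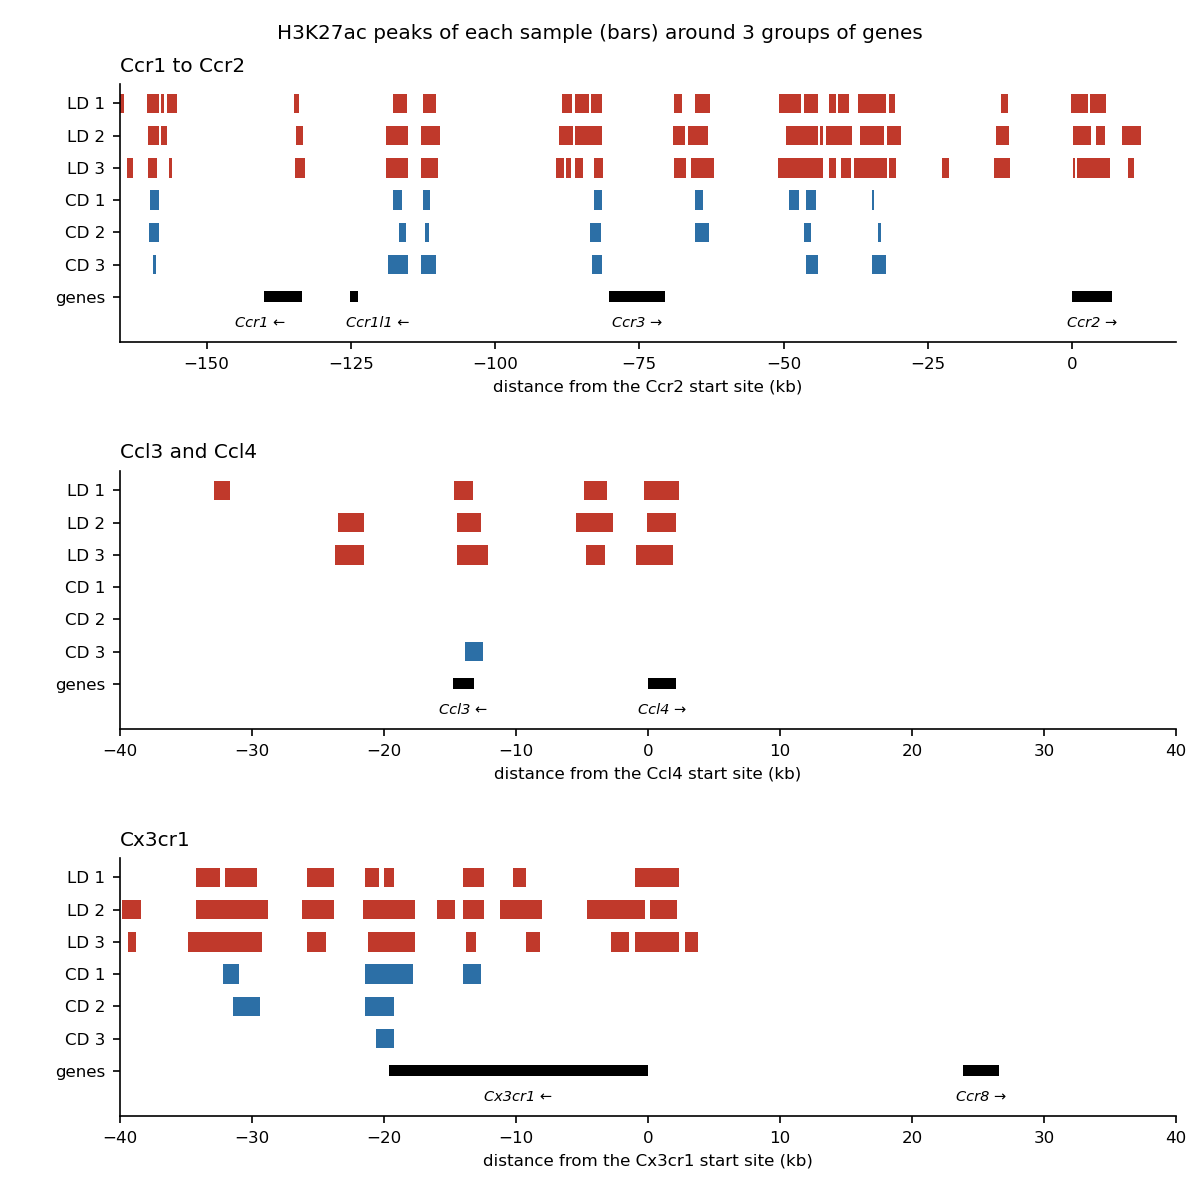
H3K27ac peaks (bars) of the 3 LD and 3 CD samples against the distance from the start sites of Ccr2, Ccl4 and Cx3cr1 (x axis, kb), with genes in black and arrows for their strand. LD peaks run through the cluster from Ccr1 to Ccr2 and over Ccl3, Ccl4 and Cx3cr1, where the CD samples have fewer peaks.

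Promoter contacts of the members were largely the same on the diets. The lists, which hold contacts with a CHiCAGO score of 5 or more on the pooled libraries of a diet, gave 359 contacts on LD and 329 on CD for the 41 members with any, of which 265 were on both. That is 73.8% of the LD contacts and 80.5% of the CD contacts, where 69.6% and 70.3% of all contacts in the lists were on both. With 1 pooled list per diet there was no test. Cxcl2 and Cxcl12 had the most, 37 and 37 for Cxcl2 and 38 and 34 for Cxcl12 on LD and CD. Ccr1l1, a receptor gene next to Ccr1, had 15 contacts on LD and 5 on CD, and its 5 CD contacts were all among the 15. Of its LD contacts, 12 had an other end with an H3K27ac locus found in at least 2 LD samples, and 6 of the other ends held an LD-only locus. Ccl6 had 7 and 3 contacts, Ccl9 had 9 and 4, Ccr2 had 12 and 8, Xcl1 had 6 and 0, Ccl5 and Cxcr2 had 3 and 0 each, and in the other direction Ccr6 had 15 and 22. Ccr1 had no contact listed under its name.

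**Figure D5:**
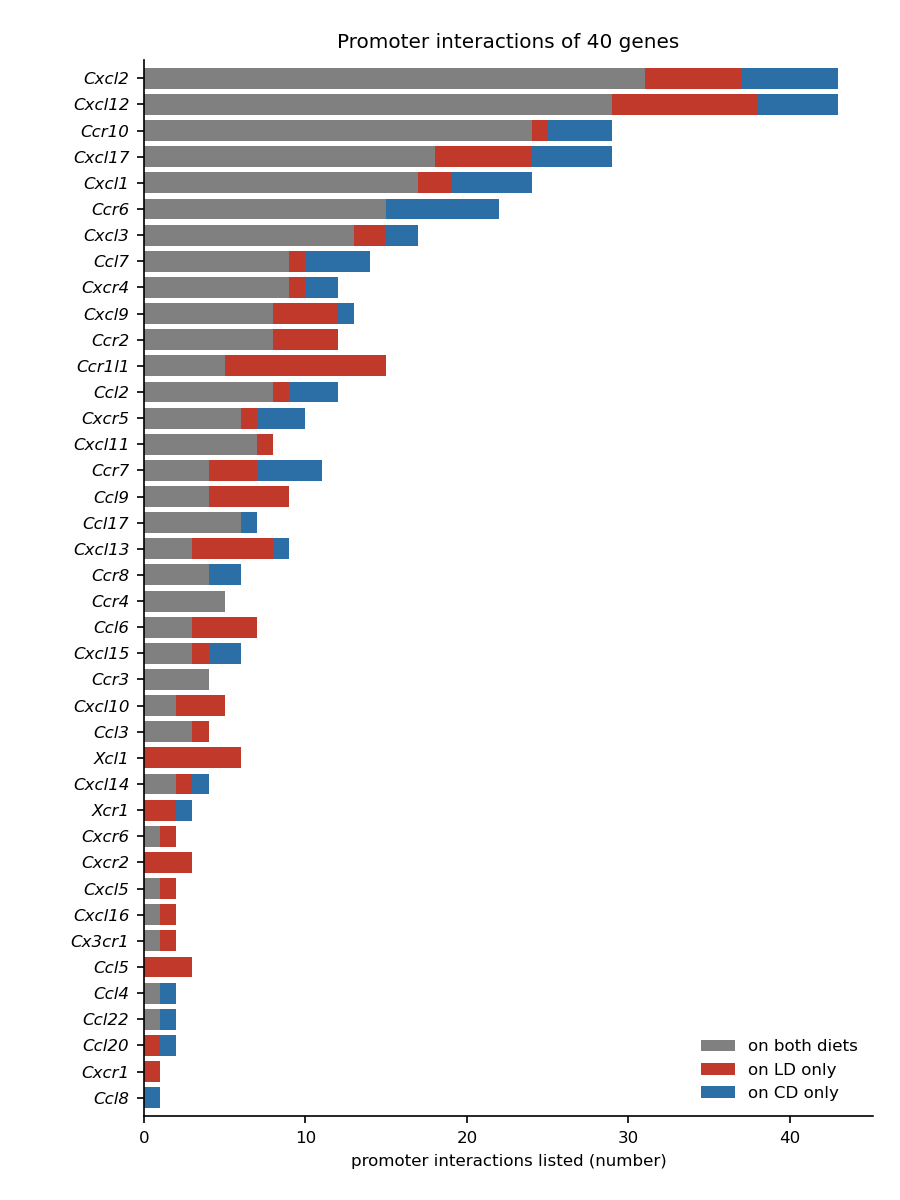
Number of promoter contacts (x axis) of 40 members, split into those listed on both diets (grey), on LD only (red) and on CD only (blue). Most bars are grey, and Ccr1l1 has the most contacts of LD alone, 10.

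Members of a cluster met each other. The Ccr2 promoter fragment at chr9:124016382-124016983 met the Ccr3 fragment at chr9:123933174-123938296, 80.95 kb away (between the fragments' centres), with a score of 22.17 on LD and 17.97 on CD. Ccr3 also met Ccr1l1 (10.99 and 7.74), and Cx3cr1 met the silent Ccr8 (18.29 and 13.02). The strongest contact of Ccr8 was with the fragment of Xirp1 (34.53 and 27.53), and that of Cxcl9 and of Cxcl10 was with the same fragment at Nup54, at 24.08 and 21.57 for Cxcl9 and 16.62 and 14.27 for Cxcl10. Ccl7 met the fragment of the silent Ccl1 (10.82 and 10.33), as did Ccl2 (9.65 and 10.20). All these contacts were listed on both diets, and the scores have no error.

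Peaks of the hepatocyte factors were found near some members and not near others. An Hnf4a peak within 20 kb was present in all 4 samples for 21 of the 58 members (53.4% of all rows), and a C/EBPa peak for 21 (50.9% of all rows). The tallest Hnf4a peak near Cxcl1 was also the tallest near Cxcl2, with heights (tags scaled to a common library size) of 407.8 and 303.2 on LD and 203.0 and 422.5 on CD. The diets overlapped, and CD sample 1, the lowest, also had the fewest peaks in all (35143, other samples 44247 to 47992). The tallest peak near Cxcl12 was at 136.2 and 131.8 on LD and 76.2 and 156.0 on CD, near Ccl2 at 108.5 and 94.8 on LD and 79.8 and 148.5 on CD, and near Cxcl10 at 77.2 and 90.5 on LD and 62.8 and 123.8 on CD. In each case the CD samples lay on either side of the LD samples. No Hnf4a peak was within 20 kb of Ccr1, Ccr2 or Ccr3 in any sample, where LD-only H3K27ac loci lay. Cx3cr1 and Ccr10, which also had LD-only loci within 20 kb, had an Hnf4a peak in all 4 samples. The tallest near Cx3cr1 was at 24.8 and 9.25 on LD and 17.2 and 31.0 on CD. The tallest C/EBPa peak near Cxcl1 was at 66.5 and 83.5 on LD and 118.5 and 97.5 on CD, near Ccr7 at 75.0 and 78.0 on LD and 158.0 and 106.0 on CD, and near Cxcl12 at 71.0 and 61.0 on LD and 135.0 and 73.0 on CD. Among the 21 members with a C/EBPa peak in every sample, both LD samples were below both CD samples in 11 and above them in 4, where 46.5% and 8.87% of all rows with such a peak were. The 4 were Cxcl9, at 61.0 and 65.5 on LD and 59.5 and 43.0 on CD, Cxcr4, at 44.5 and 48.0 on LD and 35.0 and 26.0 on CD, Ccl25, at 20.5 and 18.5 on LD and 15.0 and 6.5 on CD, and Ccl8, at 17.0 and 22.0 on LD and 10.5 and 7.5 on CD. For Hnf4a these numbers were 1 and 3 of 21, where 2.47% and 14.5% of all rows with such a peak were. The CD samples also had more C/EBPa peaks in all, 41713 and 46371 against 38281 and 39310, and the part of this in the result was not tested. With 2 samples against 2 the smallest two-sided exact permutation p is 0.333, so no difference could pass.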

How the data were processed

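Liver RNA-seq, ChIP-seq and PCHi-C of mice on LD or CD were used as deposited. The authors counted read pairs per gene by strand with featureCounts 1.5.0-p1 after STAR alignment to mm9, and also deposited TPM values made from those counts. H3K27ac peak positions came from SICER per sample and carry no height. For Hnf4a and C/EBPa the deposited signal is HOMER's normalized tag count per peak. For PCHi-C the deposited score is that of CHiCAGO on the pooled libraries of a diet, listed from 5 up. The authors' columns of DESeq2 comparisons (log2 fold change and FDR) and the lists of topological domains were not used.

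Counts were tested with edgeR 4.0.16 in R 4.3.3 (TMM scaling, filterByExpr, robust glmQLFit, glmQLFTest, Benjamini-Hochberg over 13494 rows), and calls needed an adjusted p under 0.05 and a fold change above 1.2. The filter's minimum was near 0.292 CPM. CPM values use TMM-scaled totals (31707963 to 39012699 counted pairs before scaling), and intervals cover counting error only. DESeq2 1.42.0 and limma 3.58.1 on log2(TPM + 1) and log2(TPM + 0.1) were alternatives, with other filters, windows and score minimums and each sample left out in turn. One CD column of the TPM table does not carry a replicate number that matches the labels and was used as a mouse of its group. Peaks, contacts and motifs were handled in Python 3.11.15 with pandas 2.3.3, and scripts were tested on simulated data. Promoters are from the mm9 genome at the start sites of the count table. The members and gene lists were chosen with earlier results of these data known. Values in every mouse are given for each called gene and for tested partners of called ligands and receptors, other tested genes by mean, and the rest by counts. Of the other lists, the 3 called genes with the largest change and at least 1 CPM on a diet are named, and other genes named there were chosen after their values were seen. One item counted in the totals is not reported here.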

Additional observations from a re-analysis of the deposited data

Results flagged for a closer look

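In 6 of the 66 groups of 5 mice formed by the 33 tested genes and the diets, 1 mouse lay far from the other 4 by Dixon's 95% criterion (a gap above 0.71 of the range). Chance flags about 1 in 20 groups, and genes of 1 mouse are not independent. LD mouse 2 was the highest for 3 ligands. Ccl6 was at 28.5 CPM in that mouse and at 12.5 to 14.0 CPM in the other LD mice. Cxcl1 was at 13.3 CPM in it and at 6.24 to 8.22 CPM in the others, and Cxcl16 at 22.0 CPM and 14.7 to 16.4 CPM. The same mouse held 93.3 CPM of summed neutrophil markers, of which S100a8 and S100a9 moved most without it. The part of these markers in the result was not tested. Ccr9 was at 0.273 CPM in LD mouse 4, below the other LD mice (0.643 to 0.780 CPM). Among the CD mice, Cxcl1 was at 3.70 CPM in mouse 1 (others 2.95 to 3.08 CPM) and Cxcr4 at 0.475 CPM in mouse 3 (others 0.861 to 1.02 CPM).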

How the results depend on the processing

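The number of genes that rose (20) was 16 to 21 under DESeq2, other scaling, no filter, limma on TPM, the replicate block and a test against a fold of 1.2, and 17 to 20 with a mouse left out, and it was 12 with at least 10 counts required in every library, where 21 members were tested. The number that fell (1, Ccl25) was 1 with limma on log2(TPM + 1), where it was Cxcl13 and not Ccl25, 2 with DESeq2, and 0 with no filter, with limma on log2(TPM + 0.1), under the replicate block and against a fold of 1.2, and 0 to 1 with a mouse left out. With the replicate number as a block, 18 rose and 0 fell. Deviations of same-numbered mice correlated at -0.08, 0.19, 0.01, 0.01 and -0.04, and only number 2 correlated best with its own. These correlations cannot show whether such mice share more than a number. Genes that were not called and near 0 changed sign. Cxcl12 went to 0.0355 with limma on log2(TPM + 1) and 0.0362 on log2(TPM + 0.1). With a mouse left out, log2 fold changes ran from -0.111 to 0.00872 for Cxcl12, from -0.146 to 0.0205 for Ccl27a, from -0.308 to 0.034 for Cxcl11 and from -0.0363 to 0.229 for Cxcr5. The cause was not tested. Leaving out each mouse for the count ratios of members that were not tested was chosen after seeing the data, and it moved Ccl8 and Ccr1l1 (0.594 and 0.226 without LD mouse 2) and Cxcl5 (15.4 without CD mouse 1) beyond their counting intervals. Marker genes that fell (5) numbered 3 to 7 and other genes of the chemokine system that fell (1) numbered 0 to 2 with a mouse left out. Genes with less H3K27ac coverage (1) numbered 1 to 2 with a sample left out. LD-only loci (12) numbered 21 and CD-only loci (0) 1 when 2 samples of a diet were enough, and 13 to 19 and 0 to 1 with a sample left out, where fewer samples must hold a peak or lack one. Within 5 kb of a start site, 8 members had an Hnf4a peak and 7 a C/EBPa peak in every sample. At a score of 7 or more there were 174 contacts on LD and 173 on CD, and at 10 or more 63 and 57. Peak positions carry no depth, so that a missing peak is no measure of absent acetylation.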
